A study of Mus musculus with 18 samples.

Results

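Fibroblasts, the cells that build and maintain connective tissue, were compared between a pair of droplet libraries labelled detrusor only and detrusor enriched, after the layer of smooth muscle in the bladder wall, and libraries of the whole mouse bladder. A barcode counted as a fibroblast when it held at least 500 unique molecular identifiers (UMIs, tags that count RNA molecules), at least 1% of them from Dcn, Col1a1, Col1a2, Col3a1 and Lum, under 0.5% from 7 keratin and uroplakin genes (Krt7, Krt8, Krt18, Krt19, Upk1a, Upk2 and Upk3a), and under 0.5% from 4 muscle genes (Myh11, Actg2, Des and Cnn1). The rule found 7546 fibroblasts among the 19831 barcodes of the 5 libraries compared, 6227 in the detrusor libraries and 1319 in the whole-bladder libraries. The counts of these cells were summed per library, and the library was the unit of every test.

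The series holds 18 samples of C57BL/6 mouse bladder, 8 of them droplet libraries, with 4 tissue sections and 6 bulk RNA libraries beside them. All 5 libraries compared followed the standard 10x Chromium protocol, carry no allele, transgene or treatment in their labels, and were made from pooled animals, so that animals within a library cannot be separated. On the detrusor side stood 1 library labelled detrusor only, from 3 females of 14 months, and 1 library labelled detrusor enriched, from 2 females and 2 males of 14 months, for which the tissue label is the whole bladder. On the other side stood 3 whole-bladder libraries, each labelled with 2 females and 2 males, of which a pair came from mice of 12 months (called here the first and the second 12-month library) and 1 from mice of 24 months. Levels in these 3 libraries are given below in that order, and levels are counts per 1000000 fibroblast UMIs (CPM) scaled by TMM factors, which offset a few abundant genes.

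Connective tissue of the bladder lies in more than 1 layer. Beneath the urothelium, the lamina propria (the mucosal connective tissue) holds fibroblasts that receive Hedgehog signals from the epithelium and return Wnt and Bmp signals to it. Between the muscle bundles lie fibroblasts and interstitial cells, among them cells that carry the receptor Pdgfra and small-conductance calcium-activated potassium channels, and the outer coat, or adventitia, holds fibroblasts marked by Pi16 and Dpp4. A detrusor preparation is meant to be depleted of mucosa, and the comparison asks how its fibroblasts differ from those of the whole organ.

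The labels and libraries were checked first. The defining markers Dcn, Col1a1 and Lum, which the rule used, were present in every library, and the median share of the 5 rule genes ran from 2.23 to 3.15% of a cell's UMIs. Sex-linked genes did not follow the labels: Xist, the RNA that silences 1 X chromosome in female cells, stood at 342 CPM in the library labelled detrusor only and at 0.0613 CPM, from 2 UMIs, in the library labelled detrusor enriched, against 432, 337 and 593 CPM in the whole-bladder libraries. The Y-linked gene Ddx3y had 51 CPM in the library labelled with 3 females and 84.3 CPM in the detrusor-enriched library, and Eif2s3y had 21.5 and 46 CPM. The library labelled with females only therefore held Y-linked RNA, and the library labelled with both sexes held almost no Xist; "detrusor-only" and "detrusor-enriched" below mean the libraries so labelled.

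Other features of the libraries also moved with the sides. Genes listed in the deposited tables numbered 31053 for the detrusor and 27998 for the whole-bladder libraries, and 26509 were common to both. Median UMIs per fibroblast were 9205 and 11479 in the detrusor libraries and 5247 to 6089 in the others, and fibroblast UMIs summed to between 873375 and 33365234 per library. Median mitochondrial shares ran from 3.21 to 5.07%. Just inside the collagen threshold (a share of 1 to 1.25%) lay 2 to 50 cells per library, and just outside it (0.75 to 1%, with the other limits met) 1 to 93. Detrusor and whole-bladder libraries shared 0 or 1 barcode per pair, and the detrusor libraries shared 15 with each other, 8 of them fibroblasts. Side, gene list and depth per cell cannot be told apart in this design, no age in months is found on both sides, and p-values measure only the spread between these libraries. Sex makeup differed as well, by label for the detrusor-only and by Xist for the detrusor-enriched library. The part of sex in the differences below was not tested.

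Fibroblasts made up a larger part of the detrusor libraries than of the 3 whole-bladder libraries compared, but not than of the male whole-bladder libraries. They were 55.7% (95% exact binomial interval 54.5 to 56.9%) of barcodes in the detrusor-only and 43.2% (95% exact binomial interval 42 to 44.4%) in the detrusor-enriched library. In the whole-bladder libraries they were 14.1% (95% exact binomial interval 12.9 to 15.4%), 13.3% (95% exact binomial interval 11.3 to 15.6%) and 23.5% (95% exact binomial interval 22 to 25%). In the whole-bladder libraries of 22- and 3-month males, which the main comparison does not use, they were 69.4% (95% exact binomial interval 68.4 to 70.3%) and 59.1% (95% exact binomial interval 57.9 to 60.4%), above both detrusor libraries. The intervals cover counting error only, and the 2 and 3 libraries compared did not overlap. An exact permutation test of 2 against 3 libraries cannot go below p = 0.1, so this difference has no test past the usual threshold, and a share of barcodes also moves with which other cells survive dissociation.

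In the sums, 1471 of 11796 genes tested differed between the sides, which is 12.5% of them: 735 were higher (6.23%) and 736 lower (6.24%) in fibroblasts of the detrusor libraries (edgeR quasi-likelihood test, Benjamini-Hochberg adjusted p under 0.05, 2 against 3 libraries). Detrusor fibroblasts, here and below, means fibroblasts of these 2 libraries and not cells shown to come from the muscle layer. The detrusor-enriched library held mucosa-side genes such as Cxcl14 at whole-bladder levels, as given below. The 2 detrusor values did not overlap the 3 whole-bladder values for 6073 genes, which is 51.5% of them (27.7% higher and 23.8% lower), so that a gene without overlap is common here. The median log2 fold change over all genes was 0.04. Scaled by library size alone, that median was 0.16 and the calls split 971 higher to 472 lower, so small differences of either sign rest on the scaling. Leaving out the first 12-month library left 103 calls, the 24-month library 130 and the second 12-month library 944, while leaving out the detrusor-enriched library gave 3085, and no gene called in both fits changed sign. A fit without 1 detrusor library leaves the other alone on its side, where only the whole-bladder libraries give the spread.

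The largest rises came in genes of several kinds. Egr3, an immediate early transcription factor, had 36 CPM in the detrusor-only and 33.2 CPM in the detrusor-enriched library, against 0.406, 1.29 and 0 CPM in the whole-bladder libraries (log2 fold change 6.93, SE 0.60, adjusted p = 0.00404). The whole-bladder value rests on 2 UMIs in all, and the ratio of the summed counts was 130.01 (95% counting interval 35.9 to 1074). Bmp6, a secreted ligand of the bone morphogenetic protein family, had 72.8 and 26.3 CPM against 0.812, 1.29 and 0.935 CPM (log2 fold change 5.72, SE 0.64, adjusted p = 0.00904). Jdp2, a repressor that binds AP-1 sites, had 48.2 and 40.01 CPM against 2.44, 3.86 and 1.87 CPM (4.23, adjusted p = 0.00227), and Lars2, the mitochondrial leucyl-tRNA synthetase, 346 and 235 CPM against 8.52, 11.6 and 9.12 CPM (4.95, adjusted p = 0.000676). The remaining large rises were the haemoglobin genes Hbb-bs (6.42), Hba-a2 (5.64) and Hba-a1 (5.51), the recombination gene Rad51b (4.28), the aminopeptidase Lnpep (4.17) and the zinc-finger gene Zfp445 (3.97). The haemoglobin genes are products of red cells: Hba-a1 and Hbb-bs, the 2 genes used as erythroid markers, summed to 132 and 264 CPM on the detrusor side and to at most 3.67 CPM on the other, and to 108 and 294 CPM in whole-bladder libraries of 22- and 3-month males. Bmp6 (5.63 to 5.72) and Rad51b (4.47) lost the call when the first 12-month or the 24-month library was left out, Zfp445 (3.57) when the 24-month library was, and Hba-a2 (5.43) when the first 12-month library was, with the log2 fold changes in those fits in parentheses.

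The largest falls were those of Tonsl, Srp54b, Fdx1l, Jchain (a product of plasma cells), Pelo, Eno1b, Raver1, Rbm8a2, Fam177a and Gadd45a, with log2 fold changes from -8.99 to -3.41. Tonsl, a replication-fork repair factor, had 0.218 CPM in the detrusor-only and 0.368 CPM in the detrusor-enriched library, against 171, 133 and 154 CPM in the whole-bladder libraries. Gadd45a, a stress-induced growth arrest gene, had 18.1 and 22.2 CPM against 173, 296 and 181 CPM (log2 fold change -3.41, SE 0.31, adjusted p = 0.00419). Since the gene lists of the tables differ, the 20 genes of largest change were also read in the nuclei library, which has the gene list of the detrusor tables. Nuclei lay nearer the detrusor level, on a log scale, for all 10 of the named genes that rose and all 10 that fell, while each of the 2 male whole-bladder libraries did so for 3 and 3. Immune cells of the same libraries moved alongside for several of them: Tonsl had 2 and 1.52 CPM against 173, 148 and 189 CPM there, and Lars2 489 and 233 CPM against 8.98, 17 and 8.77 CPM. All 20 of these genes could be tested for a difference of the side effect between fibroblasts and immune cells, and 3 passed, against 649 of 11968 genes overall (5.42%). That count was 1111 without the detrusor-only, 2170 without the detrusor-enriched, 66 without the first 12-month, 281 without the second 12-month and 208 without the 24-month library. Jchain (-6.43 to -6.10) lost the call when the first 12-month or the 24-month library was left out, and Raver1 (-5.13 to -4.89) when any 1 of the whole-bladder libraries was.

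**Figure D1:**
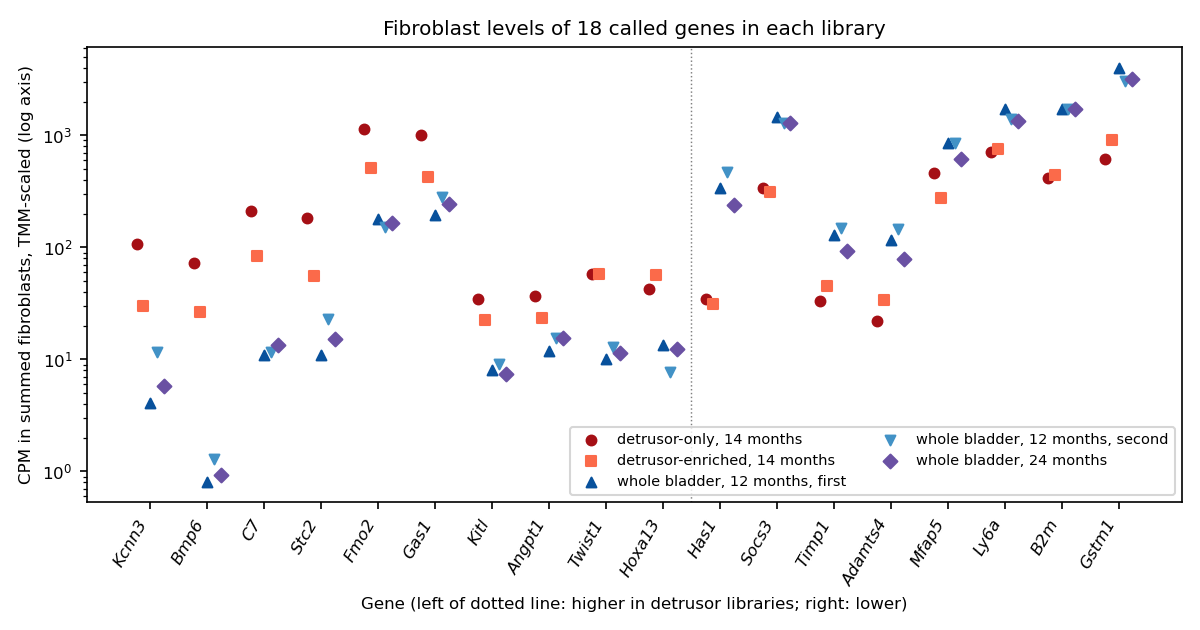
TMM-scaled CPM (log axis) of 18 genes called between the sides, 1 point per library and gene, with 10 genes that were higher in detrusor fibroblasts on the left of the dotted line and 8 that were lower on the right. For each of the 18 genes both detrusor points (red and orange) lie on 1 side of the 3 whole-bladder points (blue and purple), and for Kcnn3 the detrusor-only point, at 108 CPM, is the highest.

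Among genes of signalling, detrusor fibroblasts were higher in a potassium channel, several ligands and a co-receptor. Kcnn3, which encodes the small-conductance calcium-activated potassium channel of bladder interstitial cells, had 108 CPM in the detrusor-only and 30.2 CPM in the detrusor-enriched library, against 4.06, 11.6 and 5.85 CPM in the whole-bladder libraries (log2 fold change 3.48, SE 0.70, adjusted p = 0.0383). All detrusor values lay above all whole-bladder values, and the detrusor-only library was the highest. Of 18 interstitial cell genes 8 were not tested; of the 10 tested, 3 rose and no other passed, where 6.23% of all genes rose, with a median log2 fold change of 0.59 beside 0.04 over all genes. Markers of other cell types were higher too, where 27.7% of all genes lay higher without overlap. Of 4 pericyte markers 3 lay higher without overlap (median 1.27, 0 called) and of 5 endothelial markers 3 (median 1.27, 1 called). Of 7 smooth muscle markers, 4 of which the rule limits, 4 did (median 1.16, 1 called). The part of these markers in the values given here was not tested. The others that rose were Pde5a, the phosphodiesterase that breaks down cGMP (125 and 113 CPM against 68.2, 57.9 and 68.7 CPM, 0.86, adjusted p = 0.0206), and Pdgfrb, a receptor for platelet-derived growth factor that pericytes also carry (92.1 and 82.7 CPM against 55.2, 51.5 and 58.2 CPM, 0.66, adjusted p = 0.0351). Pdgfra, the receptor that marks these cells, had 307 and 270.1 CPM against 215, 291 and 192 CPM and did not pass the test (adjusted p = 0.343). Pdgfrb (0.58 to 0.71) lost the call when any 1 library but the detrusor-enriched was left out, Pde5a (0.91) when the first 12-month or the 24-month library was, and Kcnn3 (3.19 to 3.77) when any 1 of the whole-bladder libraries was.

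Growth factor, angiogenic and TGF-beta genes were called in both directions, at a share near that of all genes. Bmp6 was the 1 called gene of 34 tested Hedgehog, Wnt and Bmp genes, where 12.5% of all genes were called. The median of that list was 0.02. Kitl, the ligand of the receptor Kit, had 34.9 and 22.5 CPM against 8.12, 9.01 and 7.48 CPM (log2 fold change 1.84, SE 0.27, adjusted p = 0.014). Angpt1, the angiopoietin that activates the endothelial receptor Tek, had 36.9 and 23.2 CPM against 11.8, 15.5 and 15.7 CPM (1.08, adjusted p = 0.0487). Stc2, a secreted glycoprotein of the stanniocalcin family, had 183 and 55.5 CPM against 11, 23.2 and 15.2 CPM (log2 fold change 2.95, SE 0.60, adjusted p = 0.0399), with no overlap. Igf2 (-4.85) and Igfbp2, a binding protein for insulin-like growth factors (-2.30), fell, which gave 2 higher and 2 lower of 31 tested growth factor and angiogenic genes, where 6.23% and 6.24% of all genes were called. Of 25 TGF-beta genes, Gdf15 (2.52) and the latent binding protein Ltbp3 (0.81) rose and the receptor Tgfbr1 fell (-1.28), near the 12.5% called over all genes. Gas1, a co-receptor for Hedgehog ligands, had 1007 and 424 CPM against 193, 279 and 245 CPM (log2 fold change 1.59, SE 0.38, adjusted p = 0.0472) and was the 1 called gene of 12 on the list of parenchymal fibroblasts, those within the muscle wall. Kitl was also high in immune cells of the detrusor libraries, at 128 and 51.3 CPM against 6.29, 7.29 and 6.14 CPM. Kitl (1.77 to 1.86), Igf2 (-5.06 to -5.04) and Ltbp3 (0.75 to 0.77) lost the call when the first 12-month or the 24-month library was left out, and Stc2 (2.72 to 3.18), Gas1 (1.47 to 1.71) and Gdf15 (2.26 to 3.81) when any 1 of the whole-bladder libraries was. Angpt1 (0.71 to 1.19) and Tgfbr1 (-1.42 to -0.97) lost the call when any 1 library but the detrusor-enriched was left out, and Igfbp2 (-2.20) when the first 12-month library was.

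C7, a component of the membrane attack complex of complement, rose in detrusor fibroblasts, at 209 and 83.4 CPM against 11, 11.6 and 13.3 CPM (log2 fold change 3.59, SE 0.42, adjusted p = 0.0109), with the 2 detrusor values above the 3 others. In the same list of 14 tested complement genes C1rb (-3.53) and Cfb, the protease of the alternative pathway (-1.77), fell. Of the 14, 1 was thus called higher and 2 lower, where 6.23% and 6.24% of all genes were. Without overlap 3 lay higher and 4 lower, where 27.7% and 23.8% of all genes did. Fmo2, a flavin-containing monooxygenase, had 1145 and 515 CPM against 181, 152 and 166 CPM (log2 fold change 2.32, SE 0.33, adjusted p = 0.0142). The male whole-bladder libraries of 22 and 3 months held 6.32 and 5.06 CPM of C7 and 3.37 and 1.07 CPM of Kcnn3, scaled to library size alone, so that both genes were low in all 5 whole-bladder cell libraries. With these 2 libraries added to the whole-bladder side, 654 genes were called in all, C7 (4.12), Kcnn3 (4.15), Bmp6 (7.0), Kitl (2.42) and Gas1 (1.69) among them. Bmp6 had 0.301 and 0 CPM there, and Stc2 30.9 and 17.5 CPM. The nuclei library of whole bladder from 12-month mice, with 141 nuclei that met the rule, held 214 CPM of C7, 88 CPM of Kcnn3, 82.5 CPM of Bmp6 and 231 CPM of Stc2. For C7, Bmp6 and Stc2 these levels, scaled to library size alone, lay above those of the detrusor-only library. Kcnn3 lay between the detrusor-only and the detrusor-enriched library. High levels of these genes thus cannot be called particular to the detrusor libraries. The nuclei library holds RNA of nuclei and not of whole cells, and it has the gene list of the detrusor tables. The parts of nuclear RNA and of the gene list in these levels were not tested. The words detrusor genes below mean only genes called higher on the detrusor side. C7 (3.54 to 3.71) and Cfb (-1.91 to -1.85) lost the call when the first 12-month or the 24-month library was left out, and Fmo2 (2.26 to 2.40) and C1rb (-3.88 to -2.96) when any 1 of the whole-bladder libraries was.

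Several transcription factors that mark body position and several clock genes were called. Twist1, a factor of mesenchymal cells, had 58 CPM in the detrusor-only and 57.3 CPM in the detrusor-enriched library, against 10.1, 12.9 and 11.5 CPM in the whole-bladder libraries (log2 fold change 2.35, SE 0.18, adjusted p = 0.00288), and was called in all 5 fits with 1 library left out. Hoxa13, the homeobox gene of the most caudal structures, had 42.5 and 57.2 CPM against 13.4, 7.73 and 12.4 CPM (log2 fold change 2.08, SE 0.25, adjusted p = 0.0083), and the homeobox gene Meis2 had 365 and 239 CPM against 133, 173 and 140.1 CPM (1.03, adjusted p = 0.0352). These were the 3 called among 37 tested position factors, where 6.23% of all genes were called higher, and 9 of the 37 lay higher and 5 lower without overlap, where 27.7% and 23.8% of all genes did. Of 18 clock genes, 3 rose and 1 fell, where 6.23% and 6.24% of all genes did. Those that rose were Hlf, an output transcription factor of the clock (51.9 and 48.1 CPM against 11, 10.3 and 13.1 CPM, 2.09, adjusted p = 0.00414), and the repressors Nr1d1 (339 and 196 CPM against 127, 82.4 and 127 CPM, 1.24, adjusted p = 0.0409) and Nr1d2 (1.0). Bhlhe40, a repressor in the same circuit, fell (77.2 and 61.3 CPM against 227, 221 and 172 CPM, -1.58, adjusted p = 0.0101). The labels give no time of day for any library. Hoxa13 (2.14 to 2.21) and Nr1d2 (0.98 to 1.19) lost the call when the first 12-month or the 24-month library was left out, and Nr1d1 (0.79 to 1.35) when any 1 library but the detrusor-enriched was. Bhlhe40 (-1.49) lost the call when the first 12-month library was left out, and Meis2 (0.97 to 1.15) when any 1 of the whole-bladder libraries was.

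Few genes of the matrix were called. Changes of 2-fold were mostly not recovered in simulated counts, though real genes with smaller changes were among the calls. Of 17 tested collagen genes outside the cell rule, 1 rose, the basement membrane chain Col4a5 (0.78), where 12.5% of all genes were called in either direction. Without overlap, 8 of the 17 lay higher and 0 lower, where 27.7% of all genes lay higher, and their median was 0.54. Of 36 glycoproteins and proteoglycans the laminin chain Lama2 rose (0.76) and the microfibril proteins Mfap2 (-1.08) and Mfap5 (-1.08) fell. Of 26 genes that remodel matrix, 3 fell and no other passed, where 6.24% of all genes fell. Among those were Adamts4, a protease that cuts aggrecan (22.2 and 34.2 CPM against 117, 145 and 79.5 CPM, -2.0, adjusted p = 0.0182), and Timp1, an inhibitor of metalloproteinases (33.1 and 45.3 CPM against 129, 148 and 91.9 CPM, -1.64, adjusted p = 0.0167). Among 21 contractile genes those that changed included the sarcomeric actin Acta1, which rose, and Tagln2, which fell (-0.64). Acta1 counted 666 UMIs against 3, a ratio of 25.7 (95% counting interval 8.77 to 125). The 7 markers of smooth muscle, 4 of which the rule limits, lay higher without overlap for 4 and lower for 0 and summed to 999 and 1686 CPM in detrusor fibroblasts and to 575, 340.1 and 1402 CPM in the others, and their part in these values was not tested. Col4a5 (0.67 to 0.76), Lama2 (0.75 to 0.81) and Mfap2 (-1.08 to -1.0) lost the call when the first 12-month or the 24-month library was left out, and Adamts4 (-1.95) and Timp1 (-1.58) when the first 12-month library was. Mfap5 (-1.21 to -0.98) and Acta1 (4.52 to 5.06) lost the call when any 1 of the whole-bladder libraries was left out, and Tagln2 (-0.66 to -0.55) when any 1 library but the detrusor-enriched was.

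Several genes of the inflammatory response fell in detrusor fibroblasts. Has1, the hyaluronan synthase that inflammatory signals induce, had 34.3 CPM in the detrusor-only and 31.1 CPM in the detrusor-enriched library, against 336, 467 and 237 CPM in the whole-bladder libraries (log2 fold change -3.40, SE 0.33, adjusted p = 0.00488). Socs3, the feedback inhibitor of Il6-type cytokine signalling, had 338 and 315 CPM against 1448, 1298 and 1296 CPM (log2 fold change -2.05, SE 0.16, adjusted p = 0.00311). Both were called in all 5 fits with 1 library left out, and in both the whole-bladder libraries lay far above either detrusor library. Of 29 tested NF-kappaB and cytokine genes, 5 fell and no other passed, where 6.24% of all genes were called lower, and 9 lay lower without overlap, where 23.8% of all genes did. The median of the list was -0.81 beside 0.04 over all genes. The others that fell were Il1b (-2.63), the mitochondrial superoxide dismutase Sod2 (-0.91) and the NF-kappaB pathway genes Bcl3 and Nfkb2. Bcl3 had 11.5 and 15.8 CPM against 65.8, 76 and 44.9 CPM (-2.16, adjusted p = 0.0103). Nfkb2 had 10.3 and 11.9 CPM against 24.8, 29.6 and 19.6 CPM (-1.11, adjusted p = 0.034). Il6 itself had 7.68 and 29.5 CPM against 198, 431 and 90.3 CPM, did not overlap between the sides and did not pass the test (log2 fold change -3.67, SE 1.03, adjusted p = 0.0865). Has1 and Il6 were low in the male whole-bladder libraries, at 51.1 and 114 CPM and at 14.5 and 18.9 CPM, so that among the 5 whole-bladder cell libraries the 3 compared here were the highest. With the 2 male libraries added to the whole-bladder side, Socs3 (-1.90) was still called and Has1 (-2.82), Bcl3 (-1.61) and Nfkb2 (-0.76) were not. Nfkb2 (-1.27 to -0.99) and Sod2 (-0.99 to -0.82) lost the call when any 1 of the whole-bladder libraries was left out, Bcl3 (-2.09) when the first 12-month library was, and Il1b (-2.78 to -2.22) when the first 12-month or the 24-month library was.

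Of 33 genes on the NF-kappaB and cytokine list, 24 had a promoter in RefSeq's GRCm38.p6 table (250 bases before to 50 after the start), which is the build of these files, named mm10 in the submitters' notes. The motif GGANTTTCC, the core of a site that NF-kappaB binds, was searched on both strands. It occurred in 10 of the 24 genes (41.7%) and in 392 of 27025 genes with a promoter overall (1.45%). This is a description of the letters and not of binding. The list was drawn up around NF-kappaB, so an excess of its motif was built in and carries no information on the sides compared. A match before the start site is given for 9 of the 10 genes, at 16 to 216 bases. No position is given for the other gene, whose promoter may not have been searched for one. The windows of Nfkb2, which passed the test between the sides, and of the cytokine genes Il6, Cxcl1 and Cxcl2 and the inhibitor gene Nfkbia, which did not, are shown to set these side by side. Capitals mark the match, and the letters run 5′ to 3′ on the gene's own strand:
Nfkb2, chr19:46305696-46305724, gene on the plus strand: ggtattttcgGGACTTTCCtaagcagcac
Il6, chr5:30013061-30013089, gene on the plus strand: atcaaatgtgGGATTTTCCcatgagtctc
Cxcl1, chr5:90891165-90891193, gene on the plus strand: ctgtactccgGGAATTTCCctggcccgga
Cxcl2, chr5:90903793-90903821, gene on the plus strand: ctgagctcagGGAATTTCCctggtccccg
Nfkbia, chr12:55492807-55492835, gene on the minus strand: ctggtcgggaGGACTTTCCagccactcag

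Nfkb2 was the 1 called gene of the 9. Of the others shown beside Il6, Cxcl1 had 90.9 and 85.8 CPM against 137, 981 and 80.9 CPM (adjusted p = 0.307), Cxcl2 10.2 and 9.22 CPM against 8.12, 145 and 11.9 CPM (adjusted p = 0.334) and Nfkbia 371 and 454 CPM against 503, 1078 and 327 CPM (adjusted p = 0.454). The second 12-month library was the highest for all 3. The AP-1 motif TGACTCA also occurred in 6 of the 24 genes, and in 1607 of all genes with a promoter (5.95%).

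Immediate early genes, which tissue dissociation induces, were called in both directions. Of 34 tested, 1 rose (Egr3) and 4 fell (Socs3, Ier5, Zfp36 and Btg1), a share near the 12.5% called over all genes, with a median of -0.54. Zfp36, which targets inflammatory messenger RNAs for decay, had 386 and 458 CPM against 1048, 1245 and 1023 CPM (log2 fold change -1.39, SE 0.18, adjusted p = 0.0102). In immune cells of the same libraries it ran the other way, at 2017 and 1842 CPM against 595, 734 and 781 CPM, and the difference between the cell classes passed its own test (log2 interaction -2.77, SE 0.24, adjusted p = 0.000737), also in all 5 fits with 1 library left out. Ier5, an immediate early regulator, showed the same opposition, with 102 and 124 CPM against 328, 650.2 and 298 CPM in fibroblasts and 1279.5 and 764 CPM against 487, 510.2 and 583 CPM in immune cells (log2 interaction -2.64, SE 0.42, adjusted p = 0.0141, -3.15 to -2.31 with 1 library left out and not called without the first 12-month library). Fos (6726 and 3629.7 CPM against 5641, 4472 and 5239 CPM) and Jun (6309 and 1985 CPM against 3003, 2303 and 2849.7 CPM) did not pass between the sides. Ier5 (-2.11 to -1.76) lost the call when the detrusor-only, the detrusor-enriched, the first 12-month or the 24-month library was left out, and Zfp36 (-1.44 to -1.41) when the first 12-month or the 24-month library was.

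Bulk libraries of intact and of dissociated bladder from 12-month females, 3 each, show how these genes read without a dissociation step, in all cells together. Has1 had 0.553 ± 0.155 CPM in intact and 198 ± 22.5 CPM in dissociated bladder (SD, n = 3 each), Socs3 12.5 ± 3.54 CPM in intact and 878 ± 146 CPM in dissociated bladder, Zfp36 47.8 ± 6.68 CPM in intact and 1305 ± 243 CPM in dissociated bladder and Ier5 48.6 ± 2.36 CPM in intact and 329 ± 28.5 CPM in dissociated bladder. Adamts4 had 9.44 ± 0.915 CPM in intact and 782 ± 81.2 CPM in dissociated bladder and Egr3 0.826 ± 0.059 CPM in intact and 33.3 ± 6.82 CPM in dissociated bladder. Each of these genes was higher after dissociation than in intact tissue, both the 1 that was higher and the 5 that were lower in detrusor fibroblasts. Kcnn3 was at 45 ± 9.78 CPM in intact and 88.8 ± 28.6 CPM in dissociated bladder, Stc2 at 19.1 ± 1.92 CPM in intact and 27.1 ± 6.05 CPM in dissociated bladder and Bmp6 at 22.7 ± 4.29 CPM in intact and 38.8 ± 6.94 CPM in dissociated bladder, so these detrusor genes were detected in intact tissue too. With the 2 male libraries added, Adamts4 (-1.53), Timp1 (-1.37) and Ier5 (-1.53) were not called between the sides and Zfp36 (-1.32) was. Whether the libraries differed in their dissociation was not tested. In bulk RNA, fewer cells of a type and less RNA per cell cannot be told apart.

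More falls than rises were called on 2 other lists. Of 23 tested metallothionein and oxidative stress genes, 5 fell and no other passed, where 6.24% of all genes fell, with a median of -0.57, and 18 of the 23 lay lower without overlap, where 23.8% of all genes did. Urothelial markers, 7 of which the cell rule limits, fell beside them, 5 of 9 called and 9 of 9 lower without overlap, with a median of -2.22. Their levels thus depend on the choice of cells, and their part in these values was not tested. Among the called genes the largest fall was that of the glutathione transferase Gstm1 (620.4 and 906 CPM against 4018, 3045 and 3206 CPM, log2 fold change -2.17, SE 0.24, adjusted p = 0.00674). The metallothionein gene Mt2, which was not called, fell by more. It ran from -4.13 to -3.30 in fits without the detrusor-only, the detrusor-enriched, the first 12-month or the 24-month library. In the tissue sections described below, Gstm1 was higher in urothelium-rich (17825 ± 1997 CPM) than in collagen-rich spots (9310 ± 3283 CPM, SD, n = 4). The peroxidases Gpx3 (-0.99) and Prdx1 (-0.90) fell too. Of 23 antigen presentation and interferon genes, 5 fell and 1 rose, where 6.24% and 6.23% of all genes did, and 13 lay lower without overlap, where 23.8% of all genes did. B2m, the light chain of class I molecules, had 417 and 441 CPM against 1711, 1715 and 1729 CPM (-2.0, adjusted p = 0.00288) in fibroblasts and 1245 and 1264 CPM against 5207, 5243 and 5629 CPM in immune cells. H2-Q4, a class I gene of a family with near-identical members between which reads can be split, fell by 2.05 on the log2 scale. Ifit1 (-1.62) and the interferon regulator Irf7 (-1.29) fell as well. Gpx3 (-1.03 to -0.94), Ifit1 (-1.72 to -1.50) and Irf7 (-1.48 to -1.12) lost the call when any 1 of the whole-bladder libraries was left out, and Prdx1 (-0.94 to -0.83) when the first 12-month or the 24-month library was.

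Of 20 tested genes of adventitial fibroblasts, 4 fell and no other passed, where 6.24% of all genes fell. They were Has1, Mfap5, Ly6c1 (-1.37) and Ly6a, the surface protein Sca-1, which had 712 and 749 CPM against 1708, 1406 and 1337 CPM (-1.02, adjusted p = 0.0199). In immune cells Ly6a was lower by more, at 19.7 and 10.6 CPM against 415, 619 and 717 CPM, and the difference between the classes passed (log2 interaction 4.32, SE 0.41, adjusted p = 0.00227). Pi16, the marker of this population, had 1891 and 869 CPM against 2179.8, 2632 and 1511 CPM and did not pass (adjusted p = 0.329). The cell cycle inhibitors Cdkn1b (p27, 1.60) and Cdkn1a (p21, -1.79) moved in opposite directions. Of 8 proliferation genes only Pcna was called (-1.36), where 12.5% of all genes were. Of 18 heat shock genes 1 rose, Chordc1 (0.97), where 6.23% of all genes did. Of 14 prostaglandin genes 0 passed edgeR, 6 had an unadjusted p under 0.05 and 2 passed DESeq2, where 1471, 3944 and 2327 of all 11796 genes did. Of 89 ribosomal protein genes 7 rose and 23 fell, where 6.23% and 6.24% of all genes did, in a gene family with near-identical pseudogenes. Ly6c1 (-1.46 to -1.39), Ly6a (-1.09 to -0.89), Cdkn1a (-1.97 to -1.85), Pcna (-1.46 to -1.39) and Chordc1 (1.05 to 1.09) lost the call when the first 12-month or the 24-month library was left out, and Cdkn1b (1.49) when the 24-month library was.

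**Figure D2:**
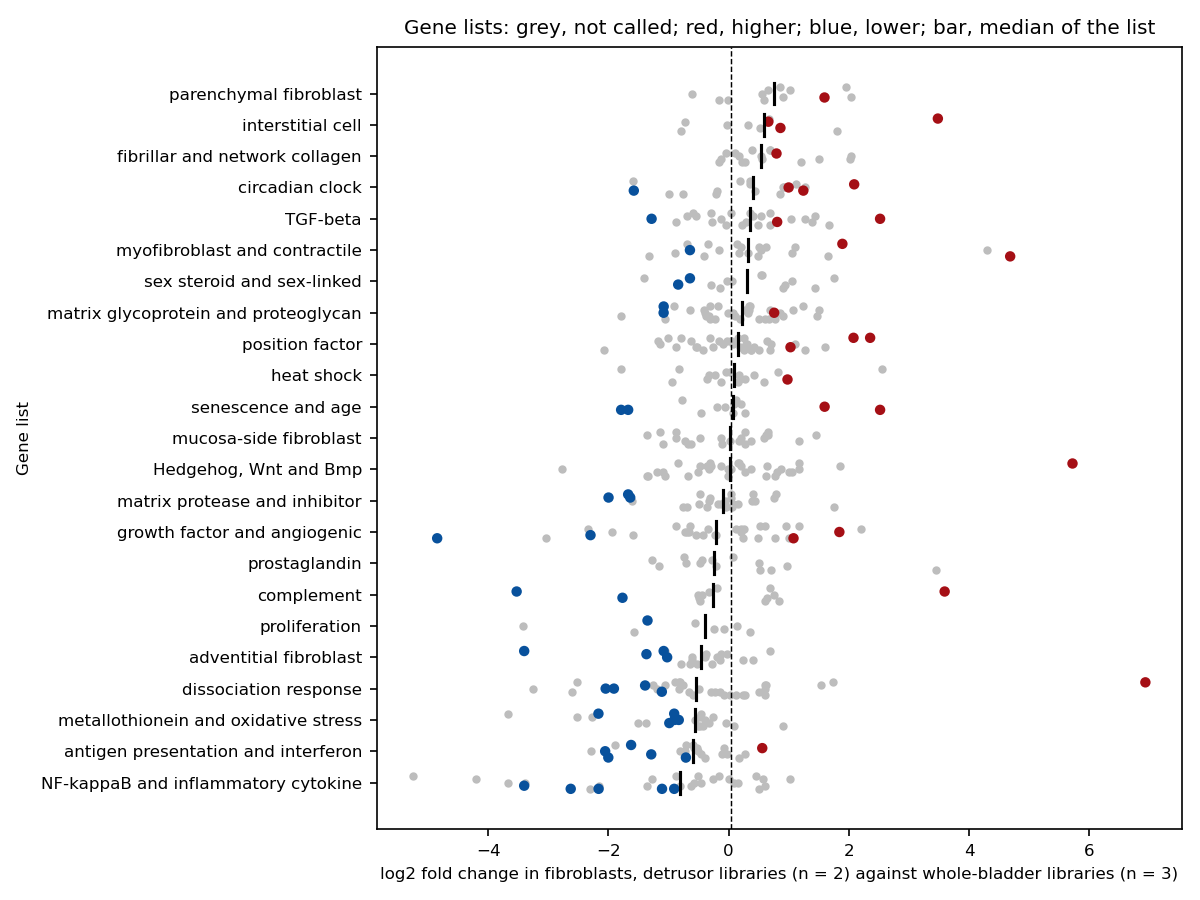
Log2 fold change (detrusor against whole-bladder libraries, x axis) of every tested gene of each list (y axis), with called genes in red (higher) or blue (lower), other genes in grey, the list's median as a black bar and the median of all genes, 0.04, as a dashed line. The NF-kappaB and cytokine list has 5 blue points and a median of -0.81, and the mucosa-side list has no coloured point.

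Markers of other cell types were not absent from the sums, given here in CPM scaled to library size alone. The 9 urothelial markers, 7 of which the rule limits, summed to 176 and 400.3 CPM in detrusor fibroblasts and to 1415, 1106 and 1128 CPM in the others, with 2 of the 9 at 0 in the detrusor-only library. The keratins that the rule limits had log2 fold changes of -2.04 (Krt19), -2.22 (Krt8), -2.10 (Krt18) and -1.91 (Krt7). Immune markers summed to 187 and 69.99 CPM against 681, 112 and 280.5 CPM, pericyte markers to 76.1 and 31.8 against 11.9 to 16 CPM, and endothelial markers to 38.6 and 26.9 against 4.58 to 15.6 CPM. Mesothelial markers summed to 259 and 107 against 122, 33.2 and 165 CPM, Schwann cell markers to at most 12.6 CPM, skeletal muscle markers to at most 9.56 CPM, and adipocyte and seminal vesicle markers to under 1 CPM. Their part in the differences above was not tested, and leaving out cells with immune or endothelial RNA gave 1451 calls, leaving out doublet-like cells 1442.

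No gene on the list of mucosa-side fibroblasts was called between the sides. Of all 11796 genes, 1471 passed edgeR at an adjusted p of 0.05, 3944 had an unadjusted edgeR p under 0.05 and 2327 passed DESeq2. Of the 23 tested genes of this list, 0 passed edgeR, 0 had an unadjusted p under 0.05 and 0 passed DESeq2, with a median log2 fold change of 0.03. The 2 detrusor libraries differed from each other here. They were therefore fitted as separate groups beside the 3 whole-bladder libraries, a fit chosen after seeing the data, in which each detrusor group has 1 library and is assumed to vary like the whole-bladder libraries. In it 757 of 11796 genes differed between the detrusor-only and the detrusor-enriched library, 254 of them higher (2.15%) and 503 lower (4.26%) in detrusor-only fibroblasts, or 162 and 623 when scaled by library size alone. Leaving out the second 12-month library raised the count to 2866. A call here compares these 2 libraries, not the preparations. The 2 libraries also differed in Xist and in labelled sex, which cannot be told apart from the preparation. The genes below were chosen with their values seen, so what follows is a description with no test: levels, log2 differences and counts of genes that differ at least 2-fold. Of all genes, 664 did so upward (5.63%) and 815 downward (6.91%). Of 23 mucosa-side genes 14 were lower and 3 higher by that measure in the detrusor-only library, with a median log2 difference of -1.88 beside -0.02 over all genes.

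Cxcl14, a chemokine of subepithelial fibroblasts, had 58.4 CPM in the detrusor-only and 2639 CPM in the detrusor-enriched library, against 2684, 1873 and 2872 CPM in the whole-bladder libraries. The detrusor-only library was low and the detrusor-enriched library lay among the whole-bladder libraries (log2 difference -5.50). Bmp5, a bone morphogenetic protein, had 0.684 and 208 CPM against 143, 125 and 164 CPM (log2 difference -8.23), and Hhip, the Hedgehog-binding protein that Hedgehog signalling induces, 2.86 and 377 CPM against 178, 96.6 and 216 CPM (-7.04). Car3, a carbonic anhydrase that marks the same cells, had 16.6 and 1936 CPM against 1901, 905 and 2529 CPM, with a log2 difference of -6.87, and the second 12-month library lay far below the other whole-bladder libraries. Further genes almost missing from the detrusor-only library were Dkk2, a Wnt antagonist (0.435 and 323 CPM against 156, 116 and 213 CPM), Tnc, the matrix protein tenascin C (0.591 and 271 CPM against 183, 157 and 201 CPM), and Notum, which inactivates Wnt ligands (0.373 and 99.96 CPM against 147, 103 and 164 CPM). Their log2 differences were -9.51, -8.82 and -8.03. Prss35, a protease-like gene, counted 3 UMIs in the detrusor-only and 2322 in the detrusor-enriched library, a ratio of 763 (95% counting interval 261 to 3701). Krt5, the basal urothelial keratin, had 0 UMIs there, at least 125-fold lower than in the detrusor-enriched library when set against 3 counts.

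Several signalling genes of the mucosa were lower in the detrusor-only library. Of 34 tested Hedgehog, Wnt and Bmp genes, 14 were at least 2-fold lower and 4 at least 2-fold higher there than in the detrusor-enriched library, beside 6.91% and 5.63% of all genes. Of 9 urothelial markers, 7 of which the cell rule limits, 6 were lower by the same measure and 0 higher, with a median of -1.54, and their part in these values was not tested. Ligands among them were Wnt4 (12.5 and 256 CPM against 71.4, 55.4 and 52.6 CPM, -4.36), Bmp7 (-4.92), Bmp2 (-2.28) and Wnt2 (-2.16). In the sections described below, Bmp7 (141 against 72.9 CPM) and Bmp2 (121 against 67 CPM) had higher means in urothelium-rich than in collagen-rich spots. Sfrp2, a secreted Wnt modulator, was lower too (-2.48). Ptch1, the Hedgehog receptor and itself a Hedgehog target, had 81.6 and 389.98 CPM against 136, 131 and 191 CPM (-2.26), so that it was highest in the detrusor-enriched library. Axin2, a target of Wnt signalling, was lower by the same measure (-2.48). Bmp6 (1.47) and Rspo1, which amplifies Wnt signals (1.59), were among the 4 that were higher.

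Transcription factors and matrix genes differed between these 2 libraries as well. Of 37 position factors 10 were at least 2-fold lower and 8 at least 2-fold higher in detrusor-only fibroblasts, where 6.91% and 5.63% of all genes were. The forkhead factors Foxl1 (-5.24), Foxf2 (-3.14) and Foxf1 (-2.41), which Hedgehog signalling maintains in the mesenchyme of the gut, and the T-box factors Tbx2 (-3.07) and Tbx3 (-2.55) were lower, and Ebf2 (1.79), Foxp2 (1.72) and Prrx1 (1.46) higher. Among 17 collagens, set against the same shares, 6 were lower, with Col12a1 (-3.94) and Col23a1 (-2.19) lowest, and 3 higher, the chains Col5a3 (1.96), Col15a1 (1.66) and Col14a1 (1.66).

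Genes higher in the detrusor-only library included several of the detrusor genes described above. Kcnn3 (1.84), Stc2 (1.72), C7 (1.33), Fmo2 (1.15) and Gas1 (1.25) were higher there than in the detrusor-enriched library. C1qtnf3, a secreted protein of the complement C1q and TNF-related family, had 237 and 39.9 CPM against 9.74, 29.6 and 13.3 CPM (2.57), Cxcl12, a chemokine of stromal cells, 1548 and 329 CPM against 304, 608 and 486 CPM (2.23), and the decoy chemokine receptor Ackr2 52.1 and 7.9 CPM against 4.06, 3.86 and 3.04 CPM (2.72). Stress genes were among those at least 2-fold higher, 8 of 18 heat shock genes and 10 of 34 dissociation response genes, where 5.63% of all genes were. Hspb1 had 1813 and 296 CPM against 526, 606 and 652 CPM, Hspa1b 1078 and 216 CPM against 113, 91.4 and 126 CPM and Jun 6309 and 1985 CPM against 3003, 2303 and 2849.7 CPM, with log2 differences of 2.62, 2.32 and 1.67. Between the 2 detrusor libraries these stress genes were thus higher on the same side as the detrusor genes. Against whole bladder, Hspb1 and Jun were lower in the detrusor-enriched than in any of the 3 libraries, while Hspa1b, Kcnn3, C7, Stc2 and Gas1 were higher there. Markers of some other cell types were also at least 2-fold higher in the detrusor-only than in the detrusor-enriched library. These were 3 of 3 mesothelial, 4 of 6 immune, 2 of 4 pericyte and 1 of 5 endothelial markers, with 0 lower. Smooth muscle markers, 4 of which the cell rule limits, went both ways, 2 of 7 higher and 2 lower. The part of the stress genes and of these markers in the levels of the detrusor genes was not tested.

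**Figure D3:**
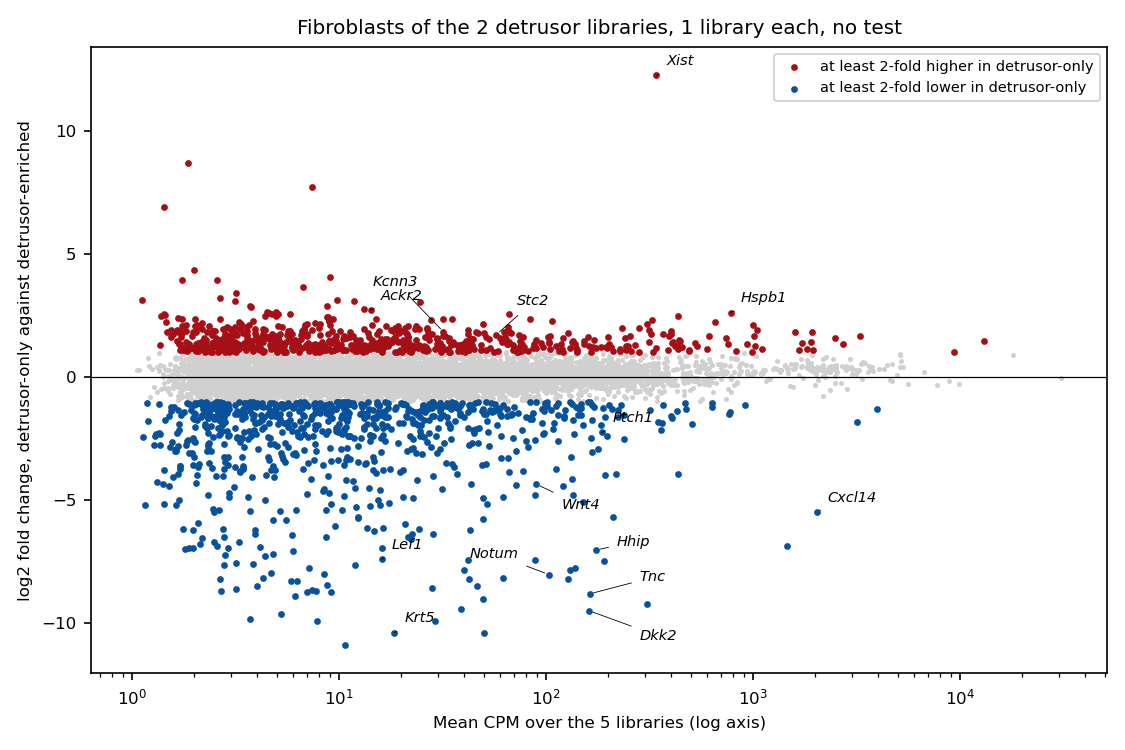
Log2 difference between detrusor-only and detrusor-enriched fibroblasts (y axis) against mean CPM over the 5 libraries (log x axis), 1 point per gene, with 664 at least 2-fold higher in red, 815 at least 2-fold lower in blue and the rest in grey. Dkk2, Tnc, Notum, Hhip and Cxcl14 lie far below 0 and Kcnn3, Stc2, Ackr2 and Hspb1 above it.

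Shares of cells were taken after thinning each fibroblast to 2000 UMIs, which left out 169 detrusor-only and 222 detrusor-enriched cells below that depth and 0 of the others. Car3 was found in 0.589% and 44.5% against 44.4%, 25.7% and 48.1% of thinned cells, in the order detrusor-only and detrusor-enriched against the whole-bladder libraries, and in 1.09, 48.5, 48.4, 29.4 and 52.6% before thinning. Cxcl14 was found in 4.83% and 52.6% against 49.5%, 39.7% and 51.7%, and Bmp5 in 0.118% and 26.1% against 21.6%, 16.2% and 22.2%. The detrusor-only library held few cells with a UMI of these 3 genes. Immune cells of the same libraries, which should lack Car3, were read before thinning, at median depths of 6307.5 to 10764.5 UMIs. A UMI of Car3 was found in 20.3% of detrusor-enriched and 11.8, 1.79 and 12.9% of whole-bladder immune cells. In detrusor-only immune cells it was found in 0 of 443, which allows up to 0.677%. Whether these UMIs came from free RNA or from doublets was not tested. Urothelial cells of the whole-bladder libraries, which are deeper (medians of 17445 to 20075 UMIs), held Car3 in 17.6, 4.5 and 26.9%. Cxcl14 was found in 2.71 and 25.8% of detrusor-only and detrusor-enriched immune cells and in 12.9, 8.93 and 24.3% of whole-bladder ones, and Bmp5 in 4.66% of detrusor-enriched and at most 1.61% of other immune cells. Before thinning, fibroblast shares of each of these 3 genes in the detrusor-enriched and the whole-bladder libraries were above those of immune and of urothelial cells of the same library.

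The detrusor genes showed the opposite order. Kcnn3 was found in 18.3% and 5.7% against 0.704%, 0.735% and 1.06% of thinned cells, C7 in 28.6% and 15.5% against 2.35%, 2.94% and 3.3%, Stc2 in 26.9% and 10.9% against 3.05%, 4.41% and 3.43% and Bmp6 in 12.3% and 5.45% against 0.235%, 0% and 0.264%. Before thinning Kcnn3 was found in 42.3 and 15.9% of detrusor fibroblasts and in 0.903 and 0% of immune cells. Gas1 was found in 68.6% and 33.2% against 21.1%, 27.9% and 22.7%, and Has1, in the other direction, in 3.56% and 4.47% against 22.8%, 33.1% and 19%. Before thinning, immune cells of these 5 libraries held Gas1 in 0 to 6.36%, Stc2 in 0 to 0.677%, C7 in 0 to 0.903%, Bmp6 in 0 to 1.27% and Has1 in 0.226 to 3.57% of cells, at medians of 6307.5 to 10764.5 UMIs. Urothelial cells of the whole-bladder libraries held Has1 in 7.46, 6.31 and 7.41%, at medians of 17445 to 20075 UMIs. Has1 was found before thinning in 9.26 and 10.2% of detrusor fibroblasts, against 0.226 and 0.847% of immune cells of the same libraries. Within the detrusor-enriched library, the 1085 thinned cells with a UMI of Car3 held Cxcl14 more often than those without it (92.2% against 21%). They held the adventitial marker Pi16 (24% against 78.7%), Inmt (21.7% against 69.4%), C7 (0.922% against 27.1%), Stc2 (2.58% against 17.5%) and Kcnn3 (1.75% against 8.86%) less often. In the first 12-month, second 12-month and 24-month libraries Pi16 was found in 34.4% against 92%, 37.1% against 82.2% and 34.3% against 84% of cells with and without Car3. Other cell types held UMIs of Pi16 too, and their source was not tested. Before thinning, Pi16 was found in 14% of immune cells of the detrusor-enriched library and in 29, 26.8 and 21.8% of those of the whole-bladder libraries. In urothelial cells of the whole-bladder libraries it was found in 50.2, 19.8 and 38%, at median depths of 17445 to 20075 UMIs. The Pi16 shares of cells with Car3 in the first 12-month and the 24-month library were below those of urothelial cells there before thinning. The Cxcl14 share of detrusor-enriched cells without Car3 was below that of immune cells there before thinning. The shares by Car3 come from thinned cells and the background from deeper ones, so their order cannot separate expression from free RNA. No background at the thinned depth is given, and the part of free RNA in the shares by Car3 was not tested. In the detrusor-only library, 620 cells held Kcnn3, with Stc2 in 36.6% against 24.7% and Col15a1 in 50.2% against 34.1% of cells with and without it. Cells of 1 library share their source, so these shares describe the libraries and carry no test.

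**Figure D4:**
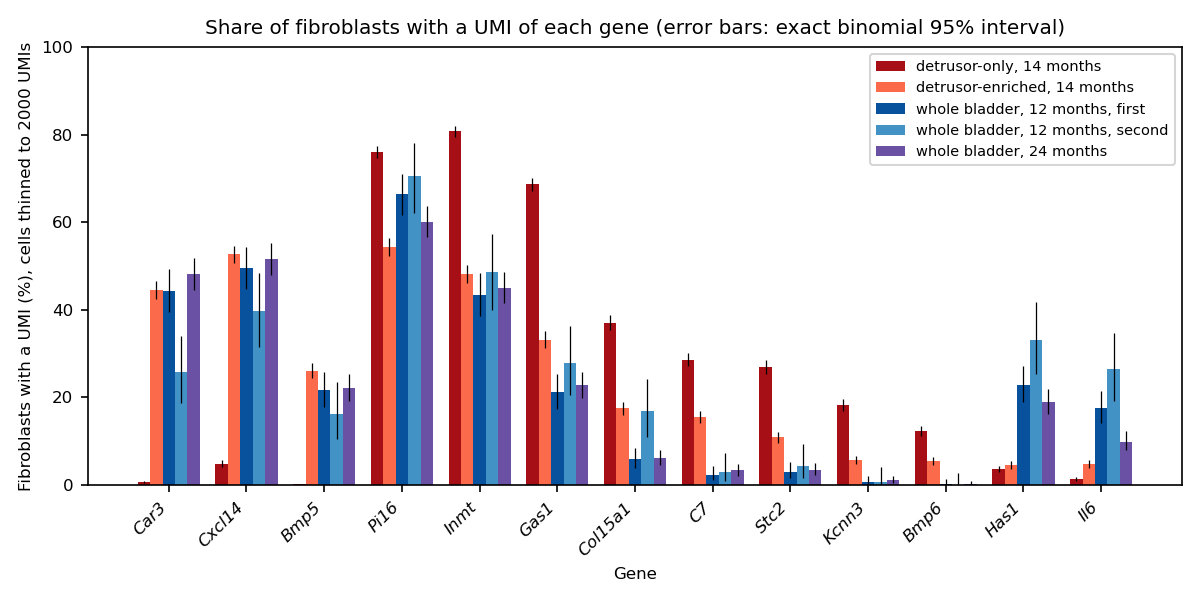
Percentage of fibroblasts with at least 1 UMI of each gene (y axis) after thinning to 2000 UMIs, with 1 bar per library and exact binomial 95% intervals, which cover counting error only. Car3 bars stand at 0.589% for the detrusor-only library and 44.5% for the detrusor-enriched library, while Kcnn3 bars stand at 18.3 and 5.7%.

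The 4 sections, 2 from males of 22 months and 2 from males of 14 months, give the position of these genes in tissue, in spots that each cover several cells. Spots in the top 25% of a section by the share of the rule's muscle, collagen or urothelial genes were pooled as muscle-rich, collagen-rich or urothelium-rich, leaving out spots in more than 1 of these, with 162 to 309, 123 to 236 and 196 to 255 spots per section. Kcnn3 had 17.6, 17.8, 17.2 and 23.5 CPM in muscle-rich and 6.37, 5.96, 16.7 and 19.9 CPM in collagen-rich spots (22 months first), higher in muscle-rich spots in 4 of 4 sections. Stc2 had 74.1, 50.7, 72.4 and 53.5 against 25.7, 10.5, 43.1 and 35.8 CPM, again higher in 4 of 4, as were Gas1, C1qtnf3 and Ackr2. C7 was too, but at low levels, with means of 2.13 and 1.17 CPM. The 36 named genes called higher in detrusor fibroblasts include Des, a muscle gene used to choose the spots, whose place was fixed in advance. No share over all genes was computed beside their tally. Of the 36, 15 were higher in muscle-rich spots in 4 of 4 sections, 5 in 2, 11 in 1 and 5 in 0. Among those that did not follow, Twist1 and Jdp2 were higher there in 2 sections, Bmp6, Fmo2, Kitl, Angpt1, Ltbp3 and Nr1d2 in 1, and Pdgfrb and Lama2 in 0, as was Cxcl12, named between the 2 detrusor libraries. Genes low in the detrusor-only library lay on the other side: Car3 had 43.5, 26.9, 46.2 and 39.9 CPM in muscle-rich and 616, 289, 321 and 335 CPM in collagen-rich spots, Cxcl14 253, 389.7, 241 and 148 against 1254, 1275, 783 and 631, and Hhip 13.5, 11, 7.78 and 7.84 against 107, 91.4, 50.01 and 42.4. Each of these 3 was higher in collagen-rich spots in 4 of 4 sections. Of the other genes named as low in the detrusor-only library, Tnc and Foxf1 were higher in collagen-rich spots in 3 of 4. Muscle cells and other cells of a spot contribute to its level, which therefore is not that of fibroblasts alone. An exact two-sided test of 4 sections by sign cannot go below p = 0.125, so none is given.

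**Figure D5:**
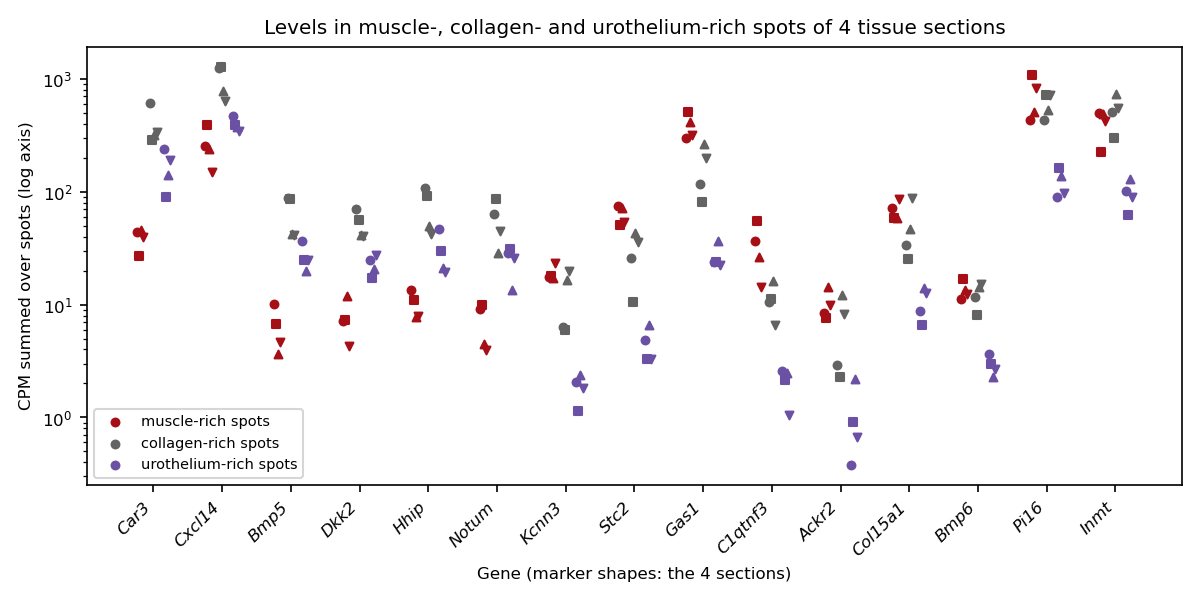
CPM (log axis) of 15 genes in summed muscle-rich (red), collagen-rich (grey) and urothelium-rich (purple) spots, with 1 marker shape for each of the 4 sections. Car3, Cxcl14 and Hhip are higher in grey than in red points in all 4 sections, and Kcnn3 and Stc2 are higher in red.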

How the data were processed

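The cells and lists were chosen with earlier results of these data known. Droplet libraries, sections and bulk libraries were analysed as the authors deposited them: UMI counts per gene for cells, nuclei and spots, and read counts per gene for bulk RNA. Per the submitters' processing notes, Cell Ranger, Space Ranger, bcl2fastq, Subread and featureCounts were used with mm10; their versions and the filter on barcodes are not given in the sources used here. Fibroblast UMIs were summed per library over genes above 0 on both sides (15712 of 26509 common genes; 3196 were above 0 on 1 side only; 194 duplicated symbols were left out), and 11796 passed filterByExpr. Sums were compared with edgeR 4.0.16 (R 4.3.3; robust quasi-likelihood fit, TMM, 2 against 3 libraries, two-sided, Benjamini-Hochberg threshold 0.05). SE is the absolute log2 fold change over the square root of F. Immune cells held at least 1% of UMIs from 7 immune genes, under 1% from the fibroblast genes and under 0.5% from the urothelial and from the muscle genes; they entered an interaction fit with library as a block. Doublet scores followed Scrublet's approach, rebuilt here with 2 simulated doublets per cell, and doublet-like cells were kept. On simulated counts the side test recovered 93.5% of 200 genes changed 4-fold and 1.5% of those changed 2-fold. The fit of the 2 detrusor libraries recovered 97% at 4-fold, and the interaction 89.5%. Changed genes had a mean of at least 10 CPM, and all genes and libraries were given the same dispersion, so real genes can be recovered less or more often. Of the 1471 real calls between the sides, 896 had an absolute log2 fold change of at least 1, and the others were smaller. This setting builds in the assumption of the fit of the 2 detrusor libraries and cannot test it. Depth was 873375 to 33365234 fibroblast UMIs per library. Floors and counting intervals are 95% and cover counting error only.

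Genes named between the sides were the 10 that rose and the 10 that fell most among called genes whose sides did not overlap and whose mean reached 10 CPM, and up to 4 called members of each of 34 gene lists, or, with no call, the 2 most abundant. Cell-rule, predicted, ribosomal and mitochondrial genes were passed over. Stc2, Fmo2, Btg1 and the genes named between the 2 detrusor libraries, in sections and in shares of cells were chosen after their values were seen. Other normalizations, DESeq2 1.42.0, filters, cell rules, thinning, added male libraries and leaving out each library were tried as alternatives. Results for some named genes are not reported here.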

Additional observations from a re-analysis of the deposited data

How the results depend on the processing

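Between the sides, the 1471 calls became 2327 with DESeq2, 896 when a log2 fold change of at least 1 was also required, 921 in cells thinned to 2000 UMIs and 654 with the 2 male libraries added, and ran from 103 to 3085 with 1 library left out. Without 1 whole-bladder library each side has 2 libraries, and the calls were 103, 944 and 130 without the first 12-month, the second 12-month and the 24-month library. Over 91 named genes and all settings, 1590 values kept their direction and side of the threshold, 271 lost the call, 15 gained it and 7 turned in sign. With 1 library left out, Cxcl14 ran from -5.41 to 0.095, Car3 from -6.75 to 0.12, Upk3b from -0.62 to 0.90 and Tnnt3 from -0.46 to 0.74, each turning in sign without the detrusor-only library. The others were Ptges3 with the male libraries (0.21), Rgs5 without doublet-like cells (-0.48) and Upk3b at a collagen share of at least 2% (-0.47). These 6 genes were not called in the comparison of all cells, and the cause of each change was not tested. At that collagen share, fibroblasts were 11.9, 8.91 and 14.3% of whole-bladder barcodes and 50.4 and 37.1% of detrusor barcodes; at 1000 UMIs per cell they were 58.0% in the detrusor-only and 55.4% in the detrusor-enriched library. Between the detrusor libraries the 757 calls became 1477 without a filter on low counts and ran from 895 to 2866 with 1 whole-bladder library left out; 160 of 160 values of its 20 named genes kept their direction and call. The 649 interaction calls ran from 66 to 2170 with 1 library left out. No paired analysis was possible because the libraries of the 2 sides share only a replicate number given in accession order, with no animal, batch or day in common in the labels. Depth limits the second 12-month library most, with 136 fibroblasts and 873375 UMIs. Changes of 2-fold were mostly not recovered in simulated counts of 5 libraries, though real genes with smaller changes were among the calls.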
